A study of Mus musculus with 24 samples.

Results

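Polysome-associated RNA from the liver of calorie-restricted (CR) mice was compared between the hours around dusk and the later night. The dusk period holds the 4 CR libraries of ZT10 and ZT14 and the later night period the 4 CR libraries of ZT18 and ZT22, so that 8 of the 24 libraries of the series enter the comparison, with all genes counted. ZT, zeitgeber time, counts hours from lights on. All mice were C57BL/6 of 5 months of age. The CR mice had been kept from the age of 2 months on a diet restricted by 30%, for 3 months, and 8 libraries of the same hours from mice fed ad libitum (AL) served for comparison. No transgene or deletion is named for any group. Polysomes are messenger RNAs loaded with several ribosomes. The sequenced RNA was taken from the polysome fractions and selected for poly(A) tails, so a higher value can be more transcript or more of it on polysomes, and these cannot be told apart here. No source used here gives the hour at which the CR mice were fed or the light schedule. The contrast is therefore read by clock hour only, and not as before against after a meal. Each hour has 2 libraries, and the labels number them without saying that they came from separate animals. The AL libraries of ZT22 are numbered 2C and 2d, and the labels do not say whether they share a source. What the p-values weigh is therefore variation from library to library, some of which may be technical.

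The liver clock is a feedback loop in which BMAL1 (gene Arntl) with CLOCK or NPAS2 switches on E-box genes, among them the Per and Cry repressors and the REV-ERB receptors (Nr1d1, Nr1d2), and REV-ERB in turn represses Arntl and Npas2. Clock outputs such as DBP and TEF carry the rhythm to metabolic genes. Liver metabolism also follows food: between meals glucagon, glucocorticoids, FOXO factors and PPARα favour gluconeogenesis and fat oxidation, and after a meal insulin favours glycogen and fat synthesis.

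Several libraries stood apart from the others. The 8 libraries held 28.5 to 60.8 M counted reads, of which 14.3 to 59.6 M lay outside features of ribosomal RNA. The ribosomal RNA share ran from 1.90% in CR ZT18 replicate 2 to 52.1% in CR ZT10 replicate 2, with no difference between the periods detectable (exact permutation p = 0.543 for 4 against 4 libraries, two-sided; the smallest possible p is 0.0286). The pair at ZT10 was the least alike, with a Spearman correlation of 0.919 across genes against 0.964 to 0.972 in the other pairs. Both ZT18 libraries held skeletal muscle transcripts: 12 muscle markers, listed after the data were seen, summed to 539 and 824 CPM there (CPM, a gene's counts normalised to its library's TMM-scaled total) and to between 0.958 and 6.86 CPM in the other 6 libraries, where up to 8 of the 12 were at 0. CR ZT18 replicate 2 also held 12432 CPM of 23 male-biased liver genes, against 972 to 2574 CPM in the other 7, and 87.5 CPM of 7 adipocyte and pancreas markers against 5.50 to 17.5 CPM (1 to 4 of the 7 at 0 in each library; exact p = 0.343 between the periods). Erythroid markers summed to 527 to 3336 CPM at dusk and 868 to 4400 CPM later (exact p = 0.629). Hepatocyte markers were high in every library (46488 to 105032 CPM summed over 12 genes; exact p = 0.200). Endothelial markers summed to 249 to 357 CPM at dusk and 193 to 253 CPM later (exact p = 0.0571), and Kupffer cell markers to 185 to 316 and 226 to 299 CPM (exact p = 0.971). Lymphocyte markers summed to 6.41 to 8.66 CPM at dusk and 8.91 to 22.1 CPM in the later night, without overlap (exact p = 0.0286, the smallest possible, and 0.229 adjusted over the 8 cell type lists), with 1 to 6 of 15 tested markers at 0 in each library. In bulk tissue, fewer cells of a type and less RNA per cell cannot be told apart.

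**Figure D1:**
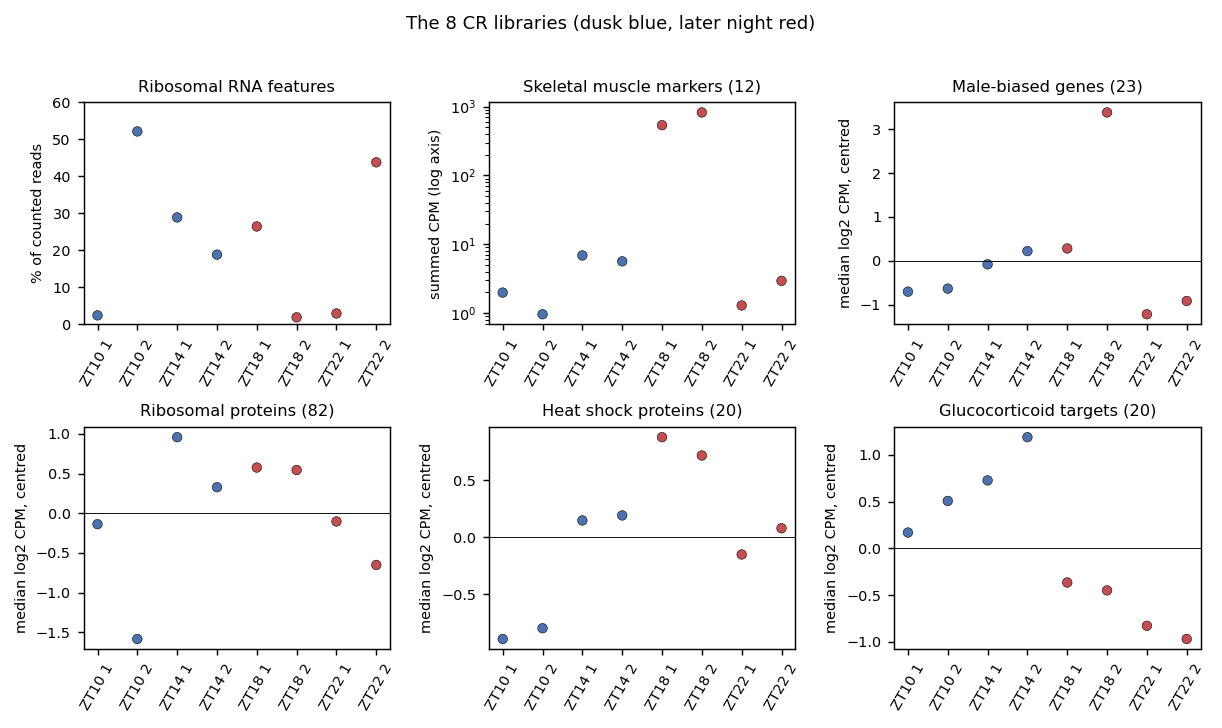
The 8 CR libraries (dusk blue, later night red), 1 point each: share of counted reads on ribosomal RNA features (%), summed CPM of skeletal muscle markers (log axis), and, for 4 gene lists, the median over members of log2 CPM centred on each gene's mean over the 8 libraries. Muscle markers stand at 539 and 824 CPM in the ZT18 libraries and at most 6.86 CPM elsewhere, and male-biased genes stand out in ZT18 replicate 2.

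Between dusk and the later night 345 of 15490 genes tested changed, 2.23%, with 184 higher (1.19%) and 161 lower (1.04%) in the later night (edgeR quasi-likelihood test, adjusted p under 0.05). Of these, 312 differed at least 2-fold. The balance of directions depended on the scaling: without a composition factor 202 genes were higher and 47 lower, and the median log2 difference of all genes moved from -0.05 to 0.23. In 259 of the 345 the 4 later night libraries lay entirely above or below the 4 dusk libraries, while 826 of all genes tested (5.33%) were separated in this way, 430 upward (2.78%) and 396 downward (2.56%). Both later hours lay beyond both dusk hours in 174 of the 184 higher and 160 of the 161 lower genes. These genes were called on the same 4 hours and the share over all genes tested was not counted, so this is no separate support. The count was uneven across libraries: leaving out 1 CR library gave from 150 genes (without ZT14 replicate 1) to 760 (without ZT10 replicate 1), and 152 and 189 without ZT22 replicate 1 and ZT18 replicate 2. The count was 210 without ZT14 replicate 2, 186 without both ZT18 libraries and 662 without both ZT10 libraries. The spread between libraries was estimated over all 24; with the 8 libraries alone 168 genes were called in a fit of 4 hours and 47 in a fit of 2 periods, and 24 and 58 of the 79 named genes lost their call. Exons of Rgs16, Coq10b, Chka, A1bg, Slc30a10, Tjp3, Arntl, Tef, Bhlhe40, Agpat2, Txnip, Manf, Sds and Nek6 overlap those of another annotated gene. The same holds for Usp2, Elovl6, Scd2, Srebf1, Irs2, Cry2, Bhlhe41, Rora, Tspan4, Sorbs3, Hmgcs1 and St6gal1. The libraries were not stranded, so reads from the overlaps cannot be told apart.

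Genes are ranked here among those called whose geometric mean over the 8 libraries reached 10 CPM and which had no overlap between the periods, so that Arntl, Npas2, Dbp and Ppp1r3g, of lower level, come later. Among the genes of largest fall were Rgs16, Lpin1, Upp2, Nr1d2, Pck1, Gpcpd1, Per1, Angptl4, Lpin2, Errfi1 and Coq10b. Rgs16, which encodes a brake on G protein signalling (ENSMUSG00000026475.7, GRCm38 chromosome 1, 153740349 to 153745468, plus strand), was at 101 and 119 CPM at ZT10, 26.7 and 59.8 at ZT14, 2.27 and 1.41 at ZT18, and 4.83 and 3.32 at ZT22. All 4 later values lay below the lowest dusk value, and the 2 values of ZT14 below those of ZT10. The means were 76.5 ± 41.4 and 2.96 ± 1.47 CPM (SD, n = 4 libraries, 2 from each hour), and the log2 difference was -4.65 ± 0.62 (SE; edgeR adjusted p = 0.000205). Lpin1, a phosphatidate phosphatase and coactivator, stood at 308, 255, 369 and 749 CPM in the dusk libraries and 21.9, 27.7, 48.5 and 35.7 CPM later, a fall of 12.3-fold (edgeR adjusted p = 0.000200). Upp2, uridine phosphorylase, went from 526, 405, 146 and 246 CPM to 36.1, 29.7, 25.4 and 36.1 CPM (log2 difference -3.25 ± 0.40). Its dusk values were higher at ZT10 than at ZT14, unlike those of Lpin1. Pck1, the rate-controlling enzyme of gluconeogenesis, was at 1791, 2621, 2245 and 2257 CPM at dusk and 223, 224, 268 and 473 CPM later (log2 difference -2.95 ± 0.43, edgeR adjusted p = 0.000408). Gpcpd1, a glycerophosphocholine phosphodiesterase, fell 7.04-fold, from 44.9 to 150 CPM to 8.95 to 16.02 CPM.

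The others of these 11 that are no clock genes were Angptl4, Lpin2, Errfi1 and Coq10b. All 11 were chosen for periods that do not overlap. Angptl4, a secreted inhibitor of lipoprotein lipase, was at 57.5 to 130 CPM at dusk and 12 to 22.2 CPM later (log2 difference -2.42 ± 0.47). Lpin2 fell 4.42-fold, with higher values at ZT22 than at ZT18: it was at 29.2 and 45.4 CPM at ZT18 and 78.3 and 130 CPM at ZT22 against 206 to 471 CPM at dusk. Without the ZT18 libraries its adjusted p was 0.0823. Errfi1, a feedback inhibitor of the EGF receptor, went from 370 to 876 CPM to 86.5 to 251 CPM, and Coq10b, a coenzyme Q binding protein, from 32.0 to 53.3 CPM to 8.10 to 14.9 CPM. The edgeR adjusted p lay between 0.000291 and 0.00611 in these 4. No single library was needed for the call of any of the 11 genes. Without both ZT22 libraries the adjusted p of Angptl4 and Errfi1 was 0.0812 and 0.0622, and without both ZT14 libraries that of Angptl4 was 0.0618.

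With the same limits, the 12 genes of largest rise were Tubb2a, Chka, A1bg, Angptl8, Ppp1r3c, Slc30a10, Cyp26a1, Slc41a2, Tjp3, Lpl, Cldn1 and Hsp90aa1. Tubb2a, a β-tubulin, went from 21.3, 11.1, 56.2 and 37.5 CPM to 244, 164, 344 and 232 CPM (log2 difference 3.14 ± 0.34, edgeR adjusted p = 2.04e-05). Of its 50-base words 49.6% occur also in another gene, so part of these reads may belong to Tubb2b. Chka, choline kinase, which starts phosphatidylcholine synthesis, rose 7.30-fold from 12.9, 4.67, 11.9 and 6.62 CPM to 55.2, 52.0, 107 and 55.7 CPM. Ppp1r3c, which targets protein phosphatase 1 to glycogen, was at 7.62, 4.87, 6.70 and 7.63 CPM at dusk, 73.0 and 68.3 CPM at ZT18, and 37.0 and 29.4 CPM at ZT22 (log2 difference 2.85 ± 0.38, edgeR adjusted p = 0.000200). It was thus highest at the first later hour. Slc30a10, an exporter of manganese (ENSMUSG00000026614.6, GRCm38 chromosome 1, 185454848 to 185468762, plus strand), ran the other way within the later night, from 3.61 to 6.71 CPM at dusk to 28.1 and 20.9 CPM at ZT18 and 40.7 and 35.8 CPM at ZT22. Its log2 difference of 2.59 ± 0.24 had the smallest edgeR adjusted p of the comparison, 2.08e-06, shared with Nr1d2 and Ppp1r3g.

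The other genes of this group rose with differing dependence on single libraries. Angptl8, a meal-responsive inhibitor of lipoprotein lipase, was at 35.8, 6.54, 29.7 and 29.0 CPM at dusk, 371 and 402 CPM at ZT18, and 108 and 61.1 CPM at ZT22 (log2 difference 2.86 ± 0.59, edgeR adjusted p = 0.00894). Its call was lost without either ZT14 library (adjusted p up to 0.0609) and without both ZT18 libraries (0.273). Lpl, lipoprotein lipase, rose 4.24-fold, from 14.6, 5.08, 2.80 and 4.48 CPM to between 21.1 and 32.9 CPM. Without ZT18 replicate 2 the log2 difference of Lpl was 1.91, and without both ZT18 libraries it was 2.00 (edgeR adjusted p = 0.0204). Adipocyte and pancreas markers were high in ZT18 replicate 2 and muscle markers in both ZT18 libraries. Their part in the values of Lpl was not tested. Cldn1, a tight junction claudin, and Tjp3, a tight junction scaffold, rose 4.09- and 4.80-fold (edgeR adjusted p = 1.04e-05 and 0.000200). Slc41a2, a magnesium carrier, rose 5.22-fold and was at 16.5 and 15.5 CPM at ZT18 and 43.8 and 39.96 CPM at ZT22. A1bg, a plasma glycoprotein, went from 2.11 to 5.94 CPM to 11.7 to 76.6 CPM, and its call was lost without ZT14 replicate 1 (adjusted p = 0.0669). Cyp26a1, which breaks down retinoic acid, rose 5.50-fold (edgeR adjusted p = 0.0296), but its call was lost on leaving out any library except ZT10 replicate 1 or ZT22 replicate 1, with adjusted p up to 0.148. Without both ZT14 libraries the adjusted p of Slc41a2 was 0.113 and that of Lpl 0.151.

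**Figure D2:**
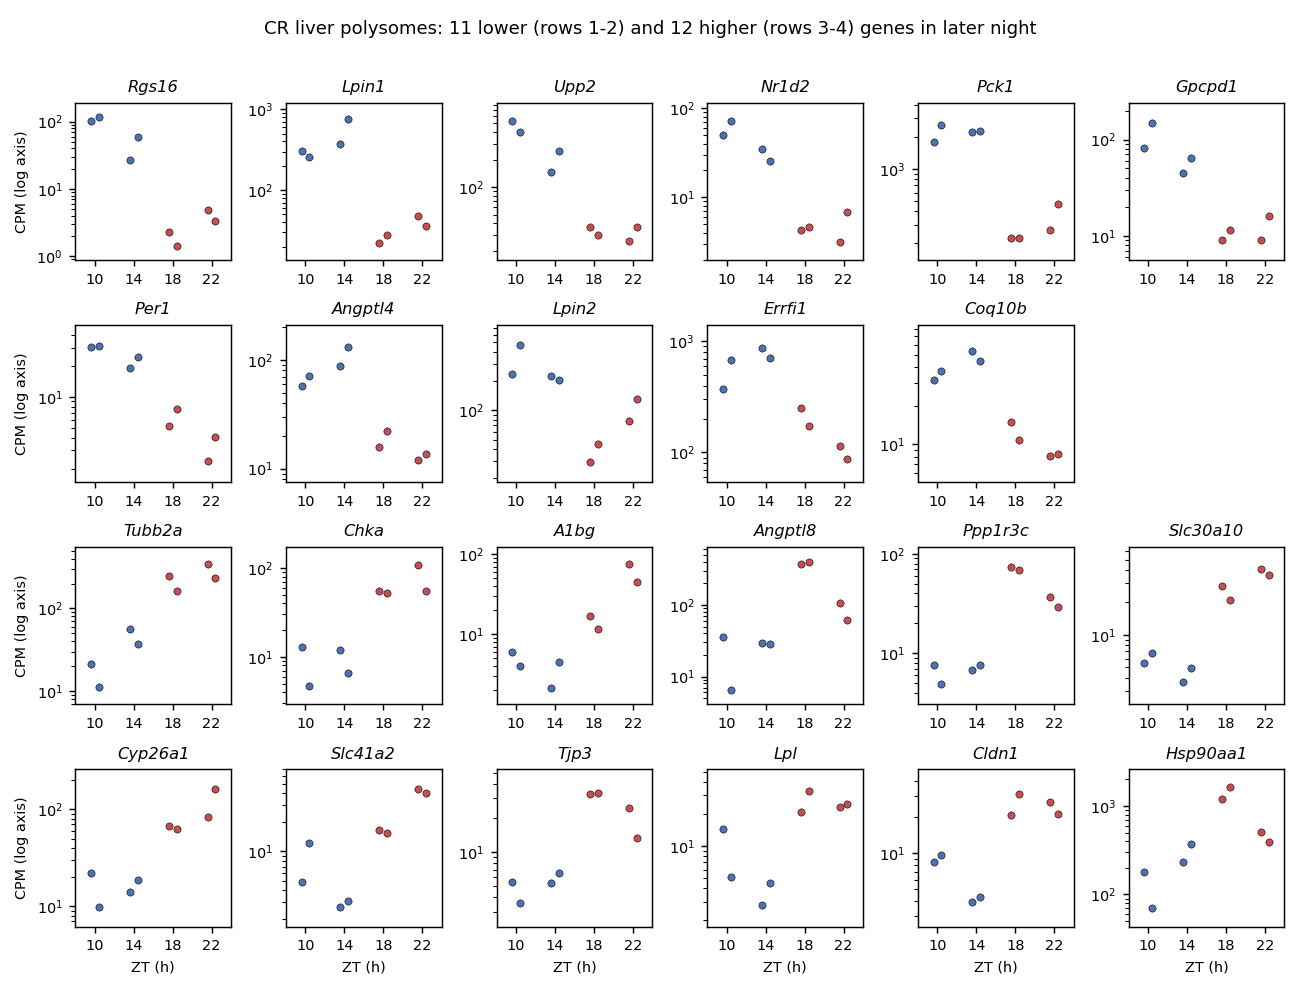
CPM (log axis) against hour (ZT) of 11 genes of large fall (upper panels) and the 12 of largest rise (lower panels); each point is a CR library, dusk in blue and later night in red. In the 23 genes, which were chosen for it, the 4 later night points lie wholly on one side of the 4 dusk points, as for Rgs16 (26.7 to 119 against 1.41 to 4.83 CPM).

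Of the 23 genes in 3 clock lists, 4 rose and 9 fell, beside shares of 1.19% higher and 1.04% lower over all genes tested. Among the 8 repressors, Per1, Per3 and Ciart fell and Cry1 rose, with a list median of -0.94 against -0.05 over all genes tested. Per1 was at 30.4, 31.2, 19.0 and 24.4 CPM at dusk and 5.20, 7.55, 2.36 and 4.05 CPM later (log2 difference -2.52 ± 0.47, edgeR adjusted p = 0.00380). Ciart, which represses CLOCK and BMAL1, had lower values at each following hour, from 17.3 and 9.42 CPM through 5.01 and 4.52 and then 1.52 and 2.58 to 0.389 and 0.209 CPM (log2 difference -3.31 ± 0.45). Of its 50-base words 11.9% occur elsewhere. Per3 had most of its difference inside the dusk period, at 25.4 and 27.2 CPM at ZT10 and 3.71 and 3.40 CPM at ZT14, and its call (edgeR adjusted p = 0.0416) was lost without any library except ZT10 replicate 1. Cry1 rose from 4.56 and 7.87 CPM at ZT10 to between 20.1 and 35.9 CPM at the later 3 hours, so that the periods overlapped (edgeR adjusted p = 0.0263; lost without 6 of the 8 libraries in turn, up to 0.127). Per2 did not pass the test (log2 difference -1.10 ± 0.36, edgeR adjusted p = 0.130): it was at 7.90 to 16.7 CPM at dusk, 13.7 and 7.18 CPM at ZT18, and 2.63 and 2.13 CPM at ZT22. Cry2, Bhlhe40 and Bhlhe41 had log2 differences of -0.47, -0.78 and -0.21 and did not pass either. Without both ZT22 libraries no repressor was called.

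In the activator and REV-ERB list, Arntl, Npas2 and Clock rose and both REV-ERB genes fell. Arntl had higher values at each following hour, from 0.0266 and 0.458 CPM through 2.54 and 1.40, then 6.26 and 7.08, to 8.07 and 9.91 CPM (log2 difference 3.69 ± 0.50, edgeR adjusted p = 0.000205). Npas2 was at 0.159 and 0.167 CPM at ZT10, without a count in either ZT14 library, at 1.65 and 0.998 CPM at ZT18 and at 5.28 and 4.89 CPM at ZT22. Its rise was called, and no fold is given since 1 group had no counts. Clock rose 2.23-fold, from 9.63 to 16.4 CPM to 23.9 to 33.6 CPM (edgeR adjusted p = 0.00755, and 0.0668 without ZT14 replicate 2). Nr1d2 was at 49.7, 71.8, 34.5 and 25.8 CPM at dusk and 4.25, 4.67, 3.16 and 6.77 CPM later (log2 difference -3.19 ± 0.29, edgeR adjusted p = 2.08e-06). Nr1d1 fell 9.03-fold and was lowest at ZT18, at 0.163 and 0.214 CPM, with 0.818 and 0.698 CPM at ZT22 (edgeR adjusted p = 0.000235). Its exons overlap those of Thra on the other strand and the library was not stranded, so these reads cannot be assigned with certainty. Rora, whose product activates Arntl, had a log2 difference of 0.12 and did not pass.

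Among clock outputs, Dbp, Tef, Usp2 and Wee1 fell and Hlf, Nfil3 and Tspan4 did not pass, with a list median of -1.61. Dbp, a PAR bZIP activator of D-box genes, had the greatest fall of the clock genes, 36.4-fold, from 19.1, 30.9, 8.16 and 8.89 CPM to 0.298, 0.463, 0.241 and 0.628 CPM (edgeR adjusted p = 5.47e-05). Its exons overlap those of Sphk2. Tef, of the same family, fell 3.05-fold, from 74.7 to 235 CPM to 25.5 to 66.6 CPM (edgeR adjusted p = 0.00536, and 0.0524 without ZT22 replicate 1). Hlf, the third member, was at 36.0 to 42.1 CPM at dusk and 26.8 to 46.7 CPM later (log2 difference -0.07 ± 0.20). Wee1, a mitotic kinase, and Usp2, a deubiquitinase, fell 4.14- and 3.99-fold, each call being lost without any of 4 libraries in turn (adjusted p up to 0.122 and 0.136). Nfil3, the repressor at D-boxes, was at 2.84 and 5.08 CPM at ZT10 and 17.7 to 47.5 CPM at the other hours, so that its difference fell inside the dusk period.

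**Figure D3:**
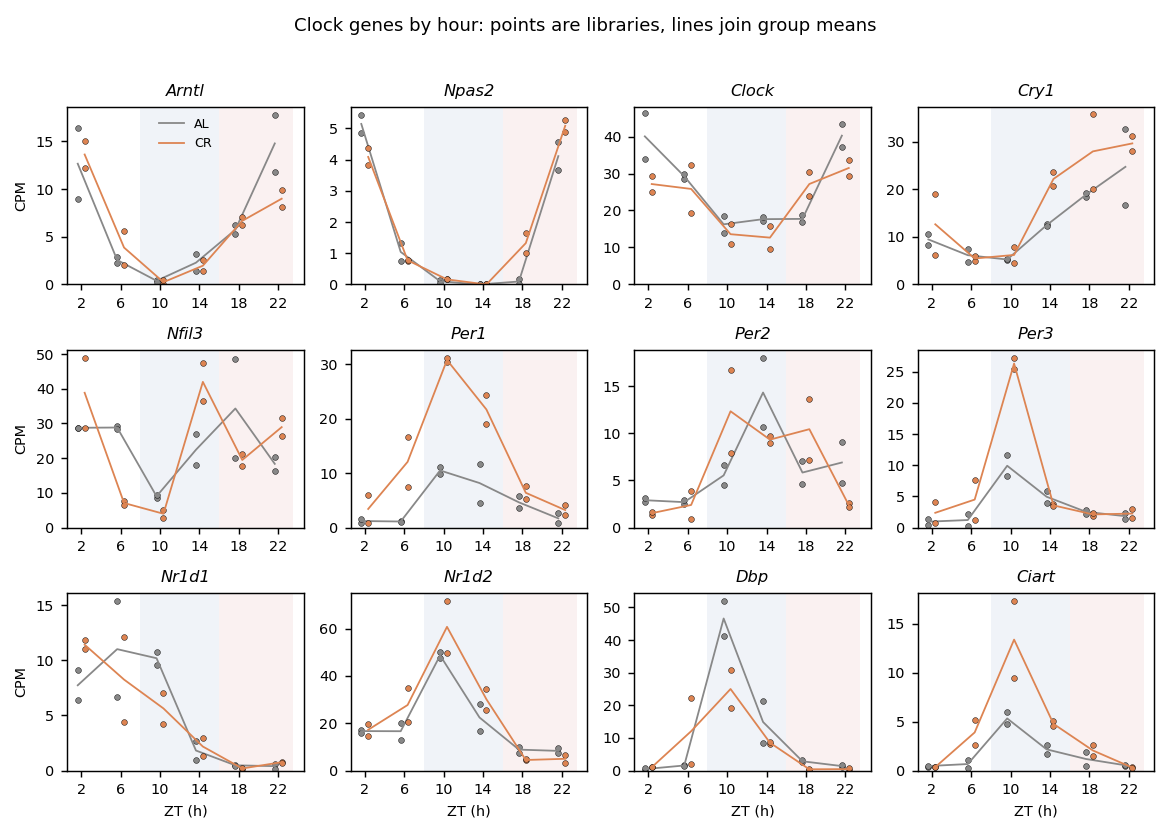
CPM (linear axis) of 12 clock genes against hour (ZT) in CR (orange) and AL (grey) liver; points are libraries, lines join the means of 2 libraries, and the blue and red bands mark the dusk and later night hours. In CR liver Arntl is at 0.0266 to 2.54 CPM in the blue band and 6.26 to 9.91 CPM in the red band, while Dbp, Nr1d1, Nr1d2, Per1 and Ciart run the other way.

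The promoters of 5 of these genes are shown because they hold the letters that the clock factors are known to bind, the E-box CACGTG of BMAL1 and CLOCK or the D-box TTATGTAA of DBP, TEF and NFIL3. Each is the 250 bases before the gene's start in RefSeq (GRCm38.p6), 5′ to 3′ on the gene's strand, with the match in capitals. Ciart lies at chr3:95882229-95882478 (minus strand), Per1 at chr11:69098699-69098948 (plus), Tef at chr15:81802423-81802672 (plus), Cry1 at chr10:85185055-85185304 (minus) and Per3 at chr4:151044666-151044915 (minus); the first 4 are shown for the E-box and Per3 for the D-box.
Ciart: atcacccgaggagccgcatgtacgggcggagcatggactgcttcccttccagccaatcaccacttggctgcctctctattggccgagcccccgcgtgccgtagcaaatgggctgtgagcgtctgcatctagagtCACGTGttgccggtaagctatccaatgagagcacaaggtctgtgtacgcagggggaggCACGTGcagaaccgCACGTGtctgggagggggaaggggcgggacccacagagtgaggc
Per1: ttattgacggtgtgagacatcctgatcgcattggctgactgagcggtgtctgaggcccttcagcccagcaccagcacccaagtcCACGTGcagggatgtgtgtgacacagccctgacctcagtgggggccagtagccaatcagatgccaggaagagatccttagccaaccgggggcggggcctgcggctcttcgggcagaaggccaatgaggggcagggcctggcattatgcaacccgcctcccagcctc
Tef: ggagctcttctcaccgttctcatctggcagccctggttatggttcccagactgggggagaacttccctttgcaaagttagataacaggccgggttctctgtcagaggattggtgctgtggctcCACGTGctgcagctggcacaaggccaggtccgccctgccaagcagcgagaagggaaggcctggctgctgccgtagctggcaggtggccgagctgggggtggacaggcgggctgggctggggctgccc
Cry1: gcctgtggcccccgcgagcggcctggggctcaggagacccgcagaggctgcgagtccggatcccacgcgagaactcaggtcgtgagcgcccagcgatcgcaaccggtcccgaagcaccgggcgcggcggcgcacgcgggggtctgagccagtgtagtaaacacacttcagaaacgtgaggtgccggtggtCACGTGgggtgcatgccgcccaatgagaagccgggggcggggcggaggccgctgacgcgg
Per3: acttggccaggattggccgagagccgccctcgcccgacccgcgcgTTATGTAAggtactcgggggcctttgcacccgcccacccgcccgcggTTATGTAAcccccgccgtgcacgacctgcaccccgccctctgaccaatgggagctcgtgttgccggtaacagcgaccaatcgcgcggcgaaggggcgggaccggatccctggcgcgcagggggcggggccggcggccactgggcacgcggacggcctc
Ciart held 3 matches, 116, 58 and 44 bases before its start, and Per3 held 2, at 205 and 158 bases. Of the 23 clock genes 19 were in the promoter table, and 6 of these held an E-box on either strand, against 6.02% of all 32851 windows. They were 3 of 8 genes that fell (Ciart, Per1, Tef), 1 of 4 that rose (Cry1) and 2 of 7 that were not called, so genes with the match went both ways. The D-box was found in 1 of 19 (Per3; 0.819% of all windows) and the core TAGGTCA of the REV-ERB and ROR element in 1 (Nfil3; 2.23%). Both strands were searched. A gene with several starts was counted if any of its windows matched, while the shares of all windows count each window singly. A match describes letters, not binding.

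In glucose metabolism, called genes of glucose output fell and called genes of glycogen went both ways. Of 14 gluconeogenesis genes 3 fell (Pck1, Ppargc1a, Got1) and none rose, beside 1.04% lower and 1.19% higher over all genes tested. In this list 13 had a negative log2 difference, with a median of -0.38 against -0.05 over all genes tested. Without a composition factor 1 gene fell and the median was -0.07, against 0.23 over all genes tested. Ppargc1a, the coactivator that drives fasting genes, was at 19.2, 24.2, 11.2 and 13.3 CPM at dusk and 5.47, 2.44, 6.47 and 8.87 CPM later (log2 difference -1.57 ± 0.37, edgeR adjusted p = 0.0232; lost without 5 of 8 libraries in turn, up to 0.144). Got1, the cytosolic aspartate aminotransferase, fell 2.54-fold (edgeR adjusted p = 0.0219; lost without 4 of 8, up to 0.139). Pck1 alone kept its call without each library. G6pc, the last step of glucose release, did not pass (log2 difference -0.64 ± 0.47), with 16.2 CPM in ZT10 replicate 1 and 145 to 162 CPM in the other dusk libraries against 56.6 to 93.2 CPM later.

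The glycogen targeting subunits of protein phosphatase 1 went in opposite directions. While Ppp1r3c rose, Ppp1r3g (ENSMUSG00000050423.11, GRCm38 chromosome 13, 35958839 to 35970388, plus strand) was at 13.2 and 17.2 CPM at ZT10, 62.1 and 106 CPM at ZT14, and 0.650, 0.796, 0.362 and 0.873 CPM in the later libraries. This was a fall of 54.5-fold (log2 difference -5.77 ± 0.51, edgeR adjusted p = 2.08e-06). Its dusk values were higher at ZT14 than at ZT10, and its values at ZT18 and ZT22 overlapped. Gys2, liver glycogen synthase, fell 2.55-fold, from 142, 283, 146 and 212 CPM to 58.6 to 87.9 CPM (edgeR adjusted p = 0.00548, and 0.0567 without ZT22 replicate 1). Pfkfb3, which makes an activator of glycolysis, fell at low counts, from 2.24 to 5.92 CPM to 0.190 to 1.36 CPM (edgeR adjusted p = 0.0452). Its call was lost without 6 of 8 libraries in turn. Txnip, an inhibitor of glucose uptake, went from 35.1, 45.3, 66.9 and 62.3 CPM to 13.3 to 15.1 CPM (log2 difference -1.84, edgeR adjusted p = 0.000255). In the insulin and FOXO list Foxo3 and Trib1 fell, none of 20 rose and 17 were negative (median -0.74); without a composition factor neither was called, and the calls were lost without 4 and 5 of the 8 libraries in turn (adjusted p up to 0.109 and 0.123). Over all genes tested 1.04% fell and 1.19% rose, with a median of -0.05. Irs2, a main insulin receptor substrate of liver, had a log2 difference of -1.01 ± 0.38 and did not pass (edgeR adjusted p = 0.208). Igfbp1, a secreted IGF-binding protein repressed by insulin, did not pass either (log2 difference -2.45 ± 0.67, edgeR adjusted p = 0.0593), being at 6.51 and 30.7 CPM at ZT10, 81.2 and 75.5 CPM at ZT14, 1.73 and 2.66 CPM at ZT18 and 19.9 and 23.8 CPM at ZT22.

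Fat synthesis and fat oxidation each had few called genes in number, beside shares of 1.19% higher and 1.04% lower over all genes tested. Of 26 lipogenesis genes Agpat2, Scd2 and Elovl6 rose and Lpin1 fell, with 16 positive (median 0.23). Agpat2, which makes phosphatidic acid, was at 40.8, 42.0, 62.2 and 95.4 CPM at dusk and 182, 197, 162 and 147 CPM later (log2 difference 1.58 ± 0.28, edgeR adjusted p = 0.00230). Elovl6, a fatty acid elongase, rose 2.71-fold and Scd2, a desaturase, 4.17-fold; the calls were lost without 4 (up to 0.170) and 2 (up to 0.0535) of the 8 libraries in turn, ZT18 replicate 2 being 1 of those for Scd2 (0.0530). Srebf1, the lipogenic transcription factor, had separate periods, at 72.1 to 113 CPM and 177 to 236 CPM, but did not pass the test (log2 difference 1.05 ± 0.39, edgeR adjusted p = 0.204), nor did Fasn (1.33 ± 0.43, edgeR adjusted p = 0.119). None of 24 cholesterol genes was called. Of 36 genes of fatty acid oxidation and PPARα, 3 fell, none rose and 28 were negative (median -0.28 against -0.05 over all genes tested). Without a composition factor 1 fell and the median was 0.07, against 0.23 over all genes tested. Cpt1a, the gate of mitochondrial fat entry, was at 149, 331, 86.5 and 93.1 CPM at dusk and 51.7 to 68.1 CPM later, and its call (edgeR adjusted p = 0.0247) was lost without any library except ZT10 replicate 1. Ppara itself was at 33.5, 133, 19.0 and 23.49 CPM at dusk and 9.97 to 20.7 CPM later, and its call was lost without 6 of the 8 libraries in turn. The log2 difference of -1.49 ran from -1.82 to -0.83 with 1 library left out, the smallest being without ZT10 replicate 2. The third gene was Angptl4. Fgf21 and Pdk4, fasting genes, did not pass, with log2 differences of -1.23 ± 0.71 and 0.78 ± 0.29.

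Of 20 glucocorticoid targets 9 fell and none rose, beside 1.04% lower and 1.19% higher over all genes tested. In this list 18 were negative, and the median was -1.48 against -0.05 over all genes tested. Per1, Pck1, Lpin1, Angptl4 and Errfi1, described above, were 5 of the 9. Cebpd, a C/EBP transcription factor, fell 3.68-fold and was at 7.29 and 6.83 CPM at ZT10, 19.7 and 22.3 CPM at ZT14 and 2.13 to 4.43 CPM later (edgeR adjusted p = 0.00650). Sds, serine dehydratase, went from 36.1 to 111 CPM to 14.2 to 25.7 CPM (edgeR adjusted p = 0.00472), Zbtb16, a transcription repressor, from 9.23 to 23.7 CPM to 3.18 to 7.71 CPM (0.0367), and Tat, tyrosine aminotransferase, from 468 to 1387 CPM to 259 to 545 CPM with overlap (0.0315). The call of Zbtb16 was lost without 6 of the 8 libraries in turn (adjusted p up to 0.198) and that of Tat without 7 (up to 0.169). In 12 of the 20 the later night libraries lay wholly below the dusk libraries, against 2.56% of all genes tested. Leaving out each library in turn left 7 to 10 of them lower, without both ZT14 libraries 4 were lower and without both ZT22 libraries 2. At the same hours in AL liver none of the 20 was called (median -0.33), and no gene passed the test of the diet difference.

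Protein folding genes rose in part. Of 20 heat shock genes 5 rose and none fell, beside 1.19% higher and 1.04% lower over all genes tested. The list median was 0.48 against -0.05 over all genes tested. Hspb1, a small heat shock protein, was at 5.86 and 7.37 CPM at ZT10, 47.6 and 26.7 CPM at ZT14, 78.6 and 118 CPM at ZT18 and 34.7 and 34.5 CPM at ZT22 (log2 difference 1.90 ± 0.27, edgeR adjusted p = 0.000258). Hsp90aa1, an inducible HSP90, was also lowest at ZT10 and highest at ZT18, with 180 and 69.5, 236 and 372, 1188 and 1619, and 508 and 393 CPM (log2 difference 2.03 ± 0.43, edgeR adjusted p = 0.0109, and 0.0838 without ZT14 replicate 1). Many 50-base words of both also occur elsewhere (47.5% for Hsp90aa1 and 48.8% for Hspb1), so their levels are uncertain. Hspa4l, a chaperone cofactor, rose 3.48-fold with separate periods (edgeR adjusted p = 0.00163). Stip1 and Fkbp4, partners of HSP90, rose 1.84- and 1.98-fold, and their calls were lost without 8 and 7 of the 8 libraries in turn. The list depended on the hours: without both ZT10 libraries 1 gene was higher and 2 lower with a median of -0.05, without both ZT18 libraries 1 was higher, and without both ZT22 libraries 10. Skeletal muscle transcripts were high in both ZT18 libraries and male-biased ones in replicate 2, and their part in these values was not tested.

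Of 30 genes of the ER chaperones and the unfolded protein response, Sdf2l1, Creld2, Manf and Dnajb11 rose and Herpud1 fell. Over all genes tested 1.19% were higher and 1.04% lower. In the list 23 were positive (median 0.32 against -0.05 over all genes tested). Sdf2l1, an ER cochaperone, was at 3.83 to 7.63 CPM at dusk, 19.99 and 68.2 CPM at ZT18 and 7.80 and 10.0 CPM at ZT22 (log2 difference 1.87 ± 0.34, edgeR adjusted p = 0.00335; 0.463 without both ZT18 libraries). Creld2, an ER disulfide isomerase, was at 10.9, 8.33, 26.9 and 21.0 CPM at dusk, 57.3 and 133 CPM at ZT18 and 36.0 and 26.7 CPM at ZT22 (edgeR adjusted p = 0.0147; lost without 4 of 8 libraries in turn, up to 0.0957). Manf, a secreted stress factor, rose 3.21-fold (0.00867; lost without 2 of 8, up to 0.0563), and Dnajb11, an ER J protein, 1.83-fold (0.0365; lost without 7 of 8, up to 0.158). Herpud1, of ER-associated degradation, went the other way, from 165, 256, 376 and 356 CPM to 80.3, 122, 73.6 and 99.5 CPM (log2 difference -1.57 ± 0.28, edgeR adjusted p = 0.00278). Without a composition factor Herpud1 was not called, and 5 of the 30 were higher and none lower. Hspa5, the main ER chaperone BiP, had 155 to 316 CPM at dusk and 314 to 411 CPM later and did not pass (log2 difference 0.93 ± 0.29, edgeR adjusted p = 0.104). Without both ZT18 libraries none of the list was higher and 1 was lower, and leaving out 1 library at a time left 1 to 6 higher. The promoters of Creld2 and Hspa5 are shown because both hold the ER stress element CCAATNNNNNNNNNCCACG, in a gene that was called and in one that was not. They are the 250 bases before the start at chr15:88819396-88819645 and chr2:34771840-34772089 (RefSeq, GRCm38.p6, both plus strand), with the element in capitals, read on the other strand in Creld2.
Creld2: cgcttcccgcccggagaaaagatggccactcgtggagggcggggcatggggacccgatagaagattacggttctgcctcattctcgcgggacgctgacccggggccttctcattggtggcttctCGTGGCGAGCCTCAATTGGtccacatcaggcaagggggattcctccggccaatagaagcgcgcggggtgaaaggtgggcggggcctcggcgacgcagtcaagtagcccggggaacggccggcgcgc
Hspa5: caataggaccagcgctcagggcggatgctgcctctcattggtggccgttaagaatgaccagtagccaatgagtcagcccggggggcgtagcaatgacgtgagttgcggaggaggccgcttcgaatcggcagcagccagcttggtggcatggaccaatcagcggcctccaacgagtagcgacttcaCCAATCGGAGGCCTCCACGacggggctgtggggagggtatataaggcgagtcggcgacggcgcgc
The element lay 126 bases before the start of Creld2 and 65 bases before that of Hspa5. It occurred on either strand in 9 of 24 list members in the promoter table against 0.113% of all windows: 1 of 3 that rose, 0 of 1 that fell and 8 of 20 that were not called.

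The other lists held few called genes in number, beside shares of 1.19% higher and 1.04% lower over all genes tested. Autophagy genes had 3 that fell of 28 and none that rose (1 that fell without a composition factor), led by Ulk1, the initiating kinase, at 18.0, 50.9, 21.9 and 26.2 CPM at dusk and 4.12, 7.45, 9.34 and 12.6 CPM later (log2 difference -1.85 ± 0.29, edgeR adjusted p = 0.000957). Of drug metabolism genes 2 of 32 fell and 30 were negative (median -0.40). Without a composition factor 1 fell and the median was -0.13, against 0.23 over all genes tested. Por, the reductase that feeds electrons to cytochromes P450, fell 3.05-fold, from 424, 526, 492 and 668 CPM to 226, 195, 129 and 153 CPM (edgeR adjusted p = 0.000762), and Slco1a4, an organic anion carrier, 2.47-fold (0.0234; lost without 5 of 8 libraries in turn, up to 0.135). In the bile acid list the sterol exporters Abcg5 and Abcg8, whose exons overlap, fell 2.51- and 2.94-fold, neither being called without a composition factor and Abcg5 losing its call without 4 of 8 libraries in turn (up to 0.140), and Cyp7a1, the first enzyme of bile acid synthesis, did not pass (log2 difference -0.44 ± 0.30). Among NRF2 targets Gclc and Srxn1 rose 1.97- and 1.86-fold (0.0464 and 0.0410), Gclc losing its call without any 1 of the 8 libraries and Srxn1 without any of 6. Of 15 tested immediate early genes Klf10 alone fell, of 46 ribosome biogenesis genes Rrp12 alone rose and of 21 aminoacyl-tRNA synthetases Tars alone rose. With 1 library left out at a time, Klf10 lost its call in 7 of 8 cases (adjusted p up to 0.149), Rrp12 in 5 (up to 0.137) and Tars in 8 (up to 0.232). Amino acid catabolism had Tat and Sds alone among 40. No gene of the urea cycle, ATF4, growth hormone, acute phase, plasma protein, proteasome, cell cycle or respiratory chain lists was called. Of the 12 muscle markers 4 were called higher, on the values of ZT18. Without the ZT18 libraries Mylpf, Tnni2 and Tnnt3 had log2 differences of -0.44, -0.03 and -0.39, and Acta1 had 0.41.

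**Figure D4:**
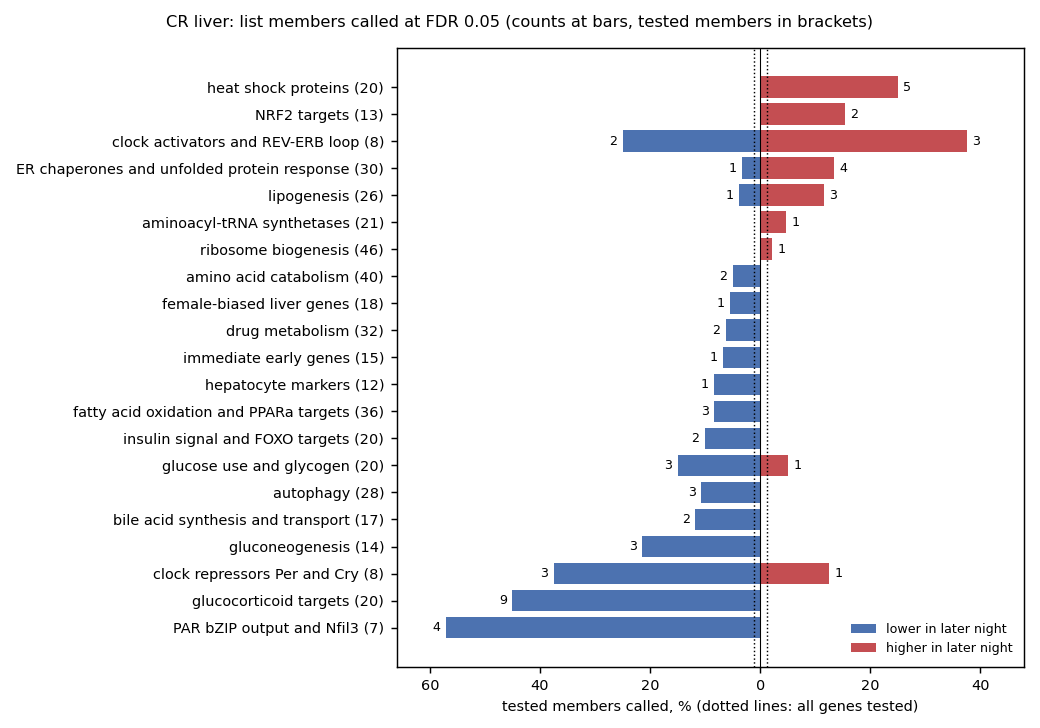
Share of tested list members called higher (red, to the right) and lower (blue, to the left) in the later night of CR liver, in percent, for the lists with a called member other than the muscle markers; counts stand at the bars, tested members in brackets, and dotted lines give the shares of all genes tested (1.19% higher, 1.04% lower). The longest bars are those of clock outputs (4 of 7 lower) and glucocorticoid targets (9 of 20 lower).

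The periods were not uniform, and the steps between adjacent hours show where the differences fell. From ZT10 to ZT14, within the dusk period, 567 genes were called (3.66%), 346 higher (2.23%) and 221 lower (1.43%). From ZT14 to ZT18 there were 151 (0.975%), 94 higher (0.607%) and 57 lower (0.368%), and from ZT18 to ZT22 89 (0.575%), 12 higher (0.0775%) and 77 lower (0.497%). Each step compares 2 libraries with 2, and the counts ran from 2 to 2082, from 3 to 101 and from 1 to 94 when 1 of the 4 libraries was left out. The counts were 2082 without ZT10 replicate 1, 105 without ZT10 replicate 2, 2 without ZT14 replicate 1 and 117 without ZT14 replicate 2 for the first step; 3, 43, 101 and 17 without ZT14 replicates 1 and 2 and ZT18 replicates 1 and 2 for the second; and 24, 1 and 11 without ZT18 replicate 2 and ZT22 replicates 1 and 2 for the third. Of the genes called between the periods, 61 of the 184 higher and 41 of the 161 lower were also called between ZT14 and ZT18, a step that uses part of the same libraries.

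At the first step Nfil3 rose with a log2 difference of 3.42 ± 0.42 (edgeR adjusted p = 0.000714). Sult2a1 and Sult2a2, sulfotransferases, were called higher at ZT14 on 1 library, with 270 and 215 CPM in replicate 1 and 8.68 and 19.95 CPM in replicate 2. Of their 50-base words 33.2% and 62.1% occur elsewhere. Hmgcs1, of cholesterol synthesis, fell from 810 and 265 CPM to 98.8 and 107 CPM (edgeR adjusted p = 0.0317), as did Hipk2, a kinase (17.1 and 51.3 to 5.79 and 7.84 CPM; 0.0207), and Gnat1, a transducin subunit (86.5 and 26.0 to 6.02 and 8.93 CPM; 0.0108). Cytosolic ribosomal proteins were higher at ZT14 than at ZT10 in 29 of 82 genes, and respiratory chain genes in 20 of 73, with medians of 1.36 and 1.10. ZT10 replicate 2, the library with 52.1% ribosomal RNA, held the least ribosomal protein transcript, 7027 CPM summed against 13510 to 40835 in the other 7. The part of that library in these lists was not tested. Across the 2 periods neither list had a called gene. The medians were 0.12 and -0.19, against -0.05 over all genes tested. Without a composition factor they were 0.36 and 0.04, against 0.23 over all genes tested.

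From ZT14 to ZT18 among genes whose geometric mean over the 8 libraries reached 10 CPM the furthest falls were those of Igfbp1 (log2 difference -5.14 ± 1.07, edgeR adjusted p = 0.0197), Rgs16 (-4.56 ± 0.88, 0.0116) and Lpin1 (-4.49 ± 0.71, 0.00327). Angptl8 (3.72 ± 0.87, 0.0367), Col27a1, a fibrillar collagen (3.44 ± 0.78, 0.0316), and Ppp1r3c (3.30 ± 0.54, 0.00450) rose furthest above the same floor. Below it Ppp1r3g fell further (-6.84 ± 0.76, 0.000134), and 11 of the 12 muscle markers were called higher. From ZT18 to ZT22 Slc8b1, the mitochondrial sodium and calcium exchanger, rose from 5.69 and 11.3 CPM to 40.7 and 41.8 CPM (edgeR adjusted p = 0.0122), after 63.2 and 40.7 CPM at ZT10 and 36.3 and 27.2 CPM at ZT14, so that its low point lay at ZT18 alone. Rnf125, a ubiquitin ligase, and St6gal1, a sialyltransferase, also rose at this step (edgeR adjusted p = 0.0472 and 0.0451). Of the 77 genes called lower at this step 11 were muscle markers, all below the floor. Above it Selenbp2, Mup11 and Serpina1e fell furthest, with log2 differences of -6.73, -6.48 and -5.60, on 1 library: they were at 433, 470 and 1197 CPM in ZT18 replicate 2 and at 26.1, 43.8 and 122 CPM in replicate 1. Of their 50-base words 43.9%, 77.8% and 34.6% occur elsewhere. Male-biased genes made up 12 called genes of this step, none of them called between the periods. Cyp7a1 fell at this step, from 119 and 92.0 CPM to 16.1 and 34.3 CPM (edgeR adjusted p = 0.0247).

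In AL liver the same contrast called 20 genes (0.129%; 14 higher, 0.0904%, and 6 lower, 0.0387%), of which 16 were called in CR liver in the same direction and none in the opposite one. They included the clock genes Arntl, Dbp, Nr1d1 and Nr1d2 and also Tubb2a, Chka, Cldn1, Coq10b and Ppp1r3c. Genes called in CR had a median log2 difference of 1.69 (higher) and -1.55 (lower) in CR, by which they were chosen, and of 0.51 and -0.51 in AL. The difference between the diets was tested itself and no gene passed (edgeR, 0 of 15490, 912 at an unadjusted p under 0.05; DESeq2 called 7). Call counts in the 2 diets do not show that more genes change in CR.

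The genes of smallest p for the diet difference are given as values that did not pass. Slc25a45, a mitochondrial carrier, was at 6.92, 6.12, 2.54 and 4.24 CPM at dusk and 13.5, 20.3, 11.9 and 8.20 CPM later in CR, and at 12.8, 14.8, 16.2 and 14.5 CPM and then 15.8, 15.2, 9.38 and 8.75 CPM in AL (CR minus AL difference of log2 1.77 ± 0.32, edgeR adjusted p = 0.246). Nek6, a kinase, was lower at CR dusk, at 14.9, 12, 5.92 and 7.91 CPM, than at any other of the hours compared, with 25.2 to 34.3 CPM later in CR and 23.2 to 37.9 CPM in all AL libraries (1.43 ± 0.29, edgeR adjusted p = 0.246). Slc30a10 was at 8.23 to 13.0 CPM at AL dusk, 12.3 and 17.0 CPM at AL ZT18 and 32.4 and 27.0 CPM at AL ZT22 (1.62 ± 0.32, edgeR adjusted p = 0.246). Igfbp1 had log2 differences of -2.45 in CR and 2.62 in AL (-5.07 ± 0.99, edgeR adjusted p = 0.246), the AL libraries of ZT22 being at 29.5 and 0.772 CPM. Txnip, Ip6k2, Irf2, Sorbs3 and Enpp3 had an adjusted p of 0.458. Pdk4 passed in AL (log2 difference 2.29 ± 0.32, edgeR adjusted p = 0.00193) and not in CR, and its difference between diets did not pass (-1.51 ± 0.43, edgeR adjusted p = 0.568).

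**Figure D5:**
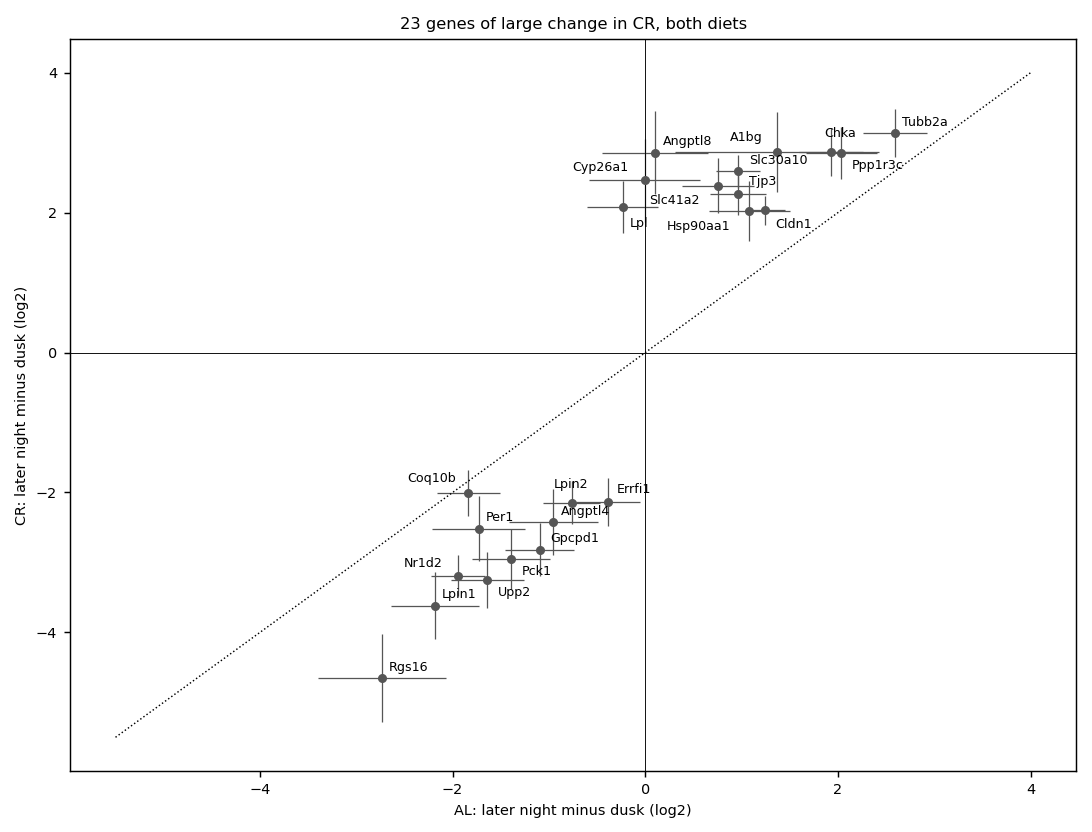
Log2 difference, later night minus dusk, in CR (vertical) against AL (horizontal) for 23 genes of large change in CR; each point is a gene, bars are 1 SE and the dotted line marks equal differences. The genes were chosen for their CR values, so distance from the line is no test; Coq10b (-2.01 in CR, -1.84 in AL) lies near it and Angptl8 (2.86 and 0.11) far from it.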

How the data were processed

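Polysome-associated poly(A) RNA of mouse liver was sequenced in 24 libraries, 2 for each of 6 hours and 2 diets. The values deposited are raw, whole-number counts for each gene, made by the authors with HTSeq on GRCm38.p5 from non-stranded libraries, per the submitters' processing notes and the labels, which also name FastQC and DESeq2 without versions. The aligner is not given in the sources used here. Of 52636 genes in the files 52403 were given a symbol through GENCODE vM21 (GRCm38).

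Counts were tested with edgeR 4.0.16 (R 4.3.3): filterByExpr, TMM scaling, 1 quasi-likelihood model of 24 libraries with 12 group means, and Benjamini-Hochberg adjustment over 15490 genes at 0.05. The contrast is the mean of the CR ZT18 and ZT22 groups minus that of CR ZT10 and ZT14. The 8 CR libraries held 28.5 to 60.8 M reads, and precision is limited by 2 libraries per group. CPM are counts normalised to the TMM-scaled library total and are compared only within a gene. Tested on simulated counts of 14675 genes, this comparison recovered 29 of 100 genes changed by log2 1 and 84 of 100 changed by log2 2, with 4 false among 117 calls. The counts were drawn independently for each gene with the fitted spread, and the changed genes lay above a floor of mean count. Differences that genes share within a library, as in ribosomal RNA or muscle transcripts, were not simulated. The false calls therefore do not give a rate for the real libraries. Alternatives used DESeq2 1.42.0, limma 3.58.1, other filters and scalings, and left out libraries.

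The contrast, gene lists and named genes were chosen with earlier results of these data known. The text names the 12 higher and 12 lower genes of largest difference (adjusted p under 0.05, geometric mean of at least 10 CPM, periods not overlapping), all clock list members, up to 4 called members of a list, 3 genes per direction of each step, 8 of smallest p for the diet difference and 15 fixed metabolic genes; some that this rule takes are not reported here. Ppp1r3g, Dbp and other list members lie outside the first rule by level. Shared sequence was counted as 50-base words, and the 363 ribosomal RNA features were defined after the data were seen. Lists were described by counts and medians, with no set test.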

Additional observations from a re-analysis of the deposited data

How the results depend on the processing

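The 345 genes between dusk and later night became 696 without a filter on low counts, 632 with DESeq2, 197 with the 12 CR libraries alone, 168 with the 8 libraries of the contrast in 4 groups, and 47 with the same 8 in 2 periods. They numbered 150 to 760 on leaving out 1 library, 662 without both ZT10 and 186 without both ZT18 libraries. Without a composition factor 249 genes were called, 202 higher and 47 lower. The other settings stayed within 1.5 times (242 to 424). The AL comparison, 20 genes, gave 106 without a filter, 54 with DESeq2, 8 without a composition factor and 9 to 27 with 1 library left out. The diet difference, 0 genes, gave 120 without a filter, 7 with DESeq2 and 0 to 1. The steps ZT10 to ZT14, ZT14 to ZT18 and ZT18 to ZT22 gave 1143, 564 and 408 without a filter, 1437, 518 and 243 with DESeq2, and 2 to 2082, 3 to 101 and 1 to 94 with 1 library left out. The cause of these shifts was not tested. Over 79 named genes called in the contrast, 1466 of 1890 values under alternatives kept direction and call, 421 lost the call, and 3 reversed: Mylpf (-0.444), Tnni2 (-0.0278) and Tnnt3 (-0.393) without both ZT18 libraries. The call was kept under every alternative by 17 genes, and without a composition factor 22 lost it, among them Tef, Per3, Gys2, Cpt1a, Ppara, Ppargc1a, Pfkfb3, Herpud1 and Foxo3. With the 12 CR libraries alone 26 lost it, and with the 8 of the contrast 24 (4 groups) or 58 (2 periods). The difference between replicates 1 and 2 correlated at 0.63 across genes between CR ZT10 and ZT22, and at -0.28 to 0.18 between the other hours. At ZT10 and ZT22 replicate 1 held 2.42% and 2.94% ribosomal RNA, and replicate 2 held 52.1% and 43.8%. With replicate number as a block 322 genes were called, 28 in AL, 0 for the diet difference and 520, 153 and 82 for the steps. Both AL ZT22 libraries, 2C and 2d, counted as replicate 2 in that fit. The heat shock list then had 3 genes higher in place of 5. The settings on the hours and the ribosomal RNA covariate were chosen after seeing the data.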
